A study of Danio rerio with 18 samples.

Results

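The cytosolic ribosomal protein genes of the zebrafish were followed through the eye, the anterior brain and the posterior brain of wild-type fish and of fish without 2 of their melanopsins. Members were the rows of the count table whose Ensembl identifier has a symbol made of rpl, rps or rplp and a digit, or rpsa, without the kinases of the rps6k family and without mitochondrial ribosomal proteins. The rule took 84 of 31624 rows. One of these, rps19bp1, encodes a binding protein and not a subunit of the ribosome, which left 83 genes. By their symbols 36 belong to the small and 47 to the large subunit. A symbol does not show that a product, such as that of rpl7l1, is part of the finished ribosome. Reads were found for 80 genes, 34 of the small and 46 of the large subunit, and all 80 passed the filter on low counts in every comparison. The other 4 rows, rpl26 and rps19bp1 among them, held 0 reads in all 18 libraries and give no level here. Where 2 rows share a symbol, the last digits of the identifier are added to the name, as in rps26_30408 (ENSDARG00000030408) and rps26_37071 (ENSDARG00000037071).

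Each cytosolic ribosome joins a small subunit, which reads the mRNA, to a large subunit, which forms the peptide bond. Its proteins are needed in near equal numbers, and in vertebrates most of their mRNAs start with a terminal oligopyrimidine (TOP) tract, through which the mTOR kinase and the RNA-binding protein Larp1 control their translation together. A few members exist as duplicated or related genes, such as rpl22 and rpl22l1, that can take each other's place in the ribosome.

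Wild-type fish of the Tubingen strain were compared with opn4 dko fish, which carry TALEN-made frameshift alleles of opn4.1 and of opn4xb (opn4.1-/- & opn4xb-/-), genes for light-sensing opsins, and keep their other melanopsins. All fish were adults of about 1.5 years, killed in the light phase. Each of the 6 groups (2 genotypes, 3 tissues) had 3 libraries, each of polyadenylated RNA from a pool of 3 fish, so that single fish were not measured. The anterior brain held part of the forebrain with the pineal gland, and the posterior brain held the rest of the forebrain with the midbrain and hindbrain. The labels do not say whether the tissues of a pool came from the same fish.

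The libraries held 2186877 to 6946549 counts, and 61947 to 224751 reads of each fell on the members. In every library 77 of the 80 genes had at least 100 reads. Rpl7l1 (25 to 123 reads) and rpl22l1 (41 to 251 reads) were among the less deeply counted ones. The shallowest library, wild-type eye replicate 3, had counts for 14577 genes, against 17604 to 20037 in the others. Photoreceptor markers summed to 32592 counts per 1000000 counts (CPM) or more in each eye library and to 194 CPM or less in each brain library, as the tissue labels require. Frameshift alleles can still be transcribed, so the mutated genes check the genotype labels only weakly. Opn4.1 had 819 to 1752 reads in wild-type eyes and 1650 to 1844 in opn4 dko eyes. Opn4xb had 45 to 66 reads in wild-type eyes and 33 to 47 in the more deeply counted opn4 dko eyes. In posterior brain opn4.1 had 5 to 10 reads in wild-type and 0 to 1 in opn4 dko fish. In anterior brain it had 0 to 31 and 16 to 19. All eye libraries were sequenced in lane 7, so eye and lane cannot be told apart. Replicate 1 of the anterior and posterior brain shared lane 6, while the other anterior libraries were in lane 5 and the other posterior libraries in lane 4.

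Ribosomal protein mRNAs took a smaller share of the anterior brain libraries than of the others. In wild-type fish the members received 1.53, 1.61 and 1.40% of the counts of the 3 anterior brain libraries (1.51% ± 0.105, SD, n = 3). The posterior brain libraries gave 3.64, 3.01 and 3.13% (3.26% ± 0.335), and the eye libraries 3.01, 3.05 and 2.92% (2.99% ± 0.0624). Both lay above the anterior brain without overlap, while the lowest posterior library lay within the range of the eye. In opn4 dko fish the shares were 1.66% ± 0.224 for anterior brain, 3.66% ± 0.492 for posterior brain and 3.84% ± 0.424 for eye (n = 3 each). The 95% Wilson intervals of single libraries were 0.0194 to 0.0447 percentage points wide, which covers counting error only, so the spread between pools was the larger error. Small-subunit reads stood at 0.632 to 0.672 times the large-subunit reads in the 6 group means. In whole tissue, fewer cells rich in these mRNAs and less of these mRNAs per cell cannot be told apart.

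**Figure D1:**
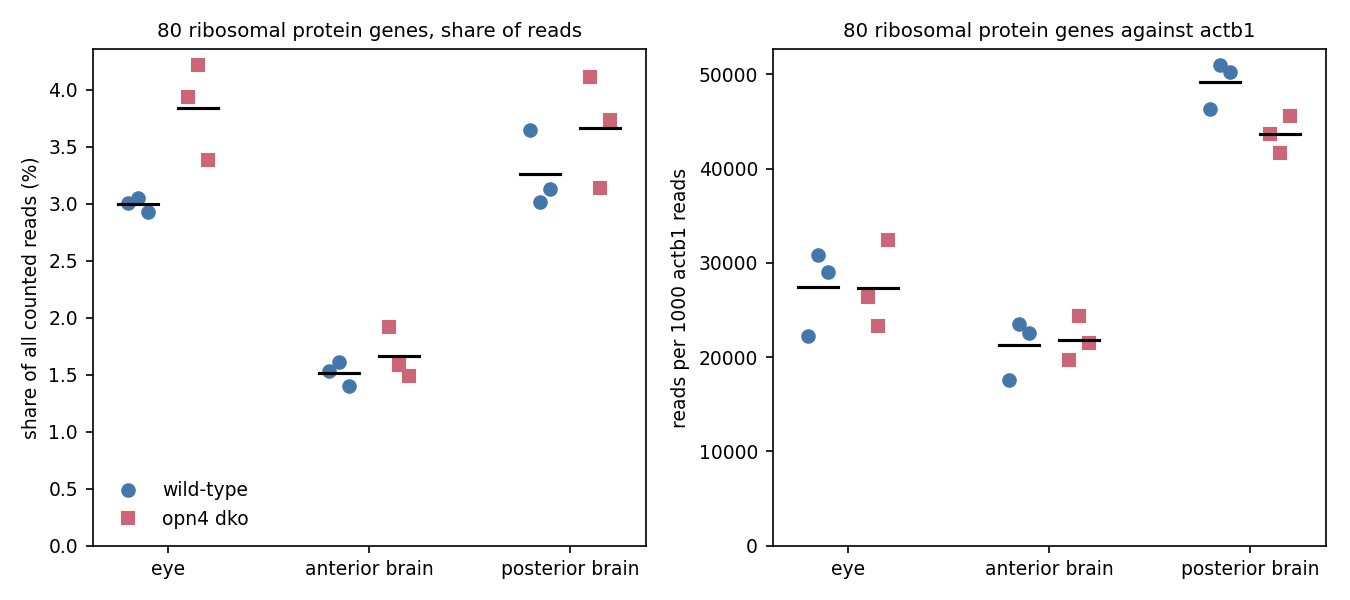
Summed level of the 80 ribosomal protein genes in each of the 18 libraries, as the share of all counts and relative to the reads of actb1; points are libraries, grouped by tissue and genotype, and bars are group means. The anterior brain is lowest on the share (1.51% ± 0.105 in wild-type fish), while relative to actb1 the posterior brain is highest (46334 to 51007 reads per 1000 actb1 reads in wild-type fish).

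The choice of reference matters for the eye. Relative to actb1, a cytoplasmic actin, wild-type posterior brain libraries held 46334 to 51007 member reads per 1000 actb1 reads, eye libraries 22255 to 30889 and anterior brain libraries 17618 to 23553. On that scale the eye overlapped the anterior brain and lay below the posterior brain. Actb1 itself read 1078 to 1421 CPM in wild-type eye, 600 to 836 in anterior and 555 to 750 in posterior brain. These CPM values were themselves scaled on the trimmed mean of all genes (TMM), so actb1 and TMM disagreed between eye and brain. Which of them was the constant reference cannot be told from these values. Scaled on actb1 in place of TMM, the median log2 fold change of all genes tested became -0.84 for wild-type eye against anterior brain. It became -1.02 for eye against posterior brain and -0.17 for anterior against posterior brain. The median of the members relative to that of all genes was 1.18 under TMM and 1.20 under actb1 for eye against anterior brain, and -1.06 and -1.05 for anterior against posterior brain. Fold changes below are on the TMM scale.

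The difference between the brain parts ran through nearly the whole family. Between wild-type anterior and posterior brain, 74 of 80 members were lower in the anterior part and 0 were higher (edgeR quasi-likelihood test, FDR below 0.05), where 13.6% of the 15399 genes tested were called lower and 13.7% higher. The median log2 fold change was -1.09, or 0.471 times the posterior level, against -0.02 over all genes, and the middle 50% of members lay between -1.28 and -0.89. Small and large subunits moved alike, with medians of -1.18 and -1.09. The 6 genes not called included rpl38, rps15a and rps24 and the thinly counted rpl22l1 and rpl7l1. In opn4 dko fish, which share no library with these, 76 members were lower and 1, rps24, was higher, with a median of -1.13 against 0.00 over all genes and a background of 14.7% lower and 15.7% higher. All 74 genes lower in wild-type fish were also lower in opn4 dko fish.

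Of the 4 steepest differences between the wild-type brain parts, 3 were those of small-subunit genes, while in opn4 dko fish the steepest was that of the large-subunit gene rpl39 (-1.78 ± 0.22, edgeR FDR = 8.30e-06). Rps25, which in yeast and human cells helps some mRNAs with internal ribosome entry sites to start translation, read 138, 174 and 134 CPM in wild-type anterior brain and 625, 515 and 464 in posterior brain. The libraries were far apart, and the log2 fold change was -1.87 ± 0.14 (SE; edgeR FDR = 7.98e-09), with -1.52 ± 0.17 in opn4 dko fish (edgeR FDR = 2.75e-06). Rps28, a small-subunit protein near the mRNA exit, read 108, 146 and 97.3 CPM in anterior and 493, 329.7 and 277 CPM in posterior brain (-1.67 ± 0.19, edgeR FDR = 1.62e-06). For rps29, a small zinc-binding protein of the head of the small subunit, the values were 66.9, 50.1 and 67.8 against 238, 143 and 179 CPM (-1.63 ± 0.19, edgeR FDR = 1.85e-06). Neither gene overlapped between the parts. The large-subunit gene rpl36al followed with 136, 105 and 139 against 472, 333 and 323 CPM (-1.59 ± 0.16, edgeR FDR = 3.35e-07).

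The order of the brain parts also held within a lane. In lane 6, which held replicate 1 of both parts, the members' median log2 difference was -1.23 in wild-type and -1.11 in opn4 dko fish, with 78 of 80 members lower in the anterior brain in each. With lane as a term in the model, only lane 6 joined the brain parts, since lane 5 held anterior and lane 4 posterior libraries alone. That fit therefore compared the parts through the same replicate 1 libraries and adds no second support. In it the call of rps24 in opn4 dko fish was lost. Cell type markers moved with the brain parts as well. The 3 oligodendrocyte markers summed to 427 to 477 CPM in wild-type anterior and 8472 to 9918 CPM in posterior brain, the 4 microglia markers to 544 to 669 and 1149 to 1578, and the 4 erythrocyte markers to 66.1 to 131 and 190.1 to 302. Of the microglia markers, cd74a (-1.43) and apoeb (-0.73) were called lower in the anterior part. The other microglia markers, ptprc (-0.14, edgeR FDR = 0.801) and csf1ra (0.56, edgeR FDR = 0.319), were not called. The summed level of the 3 neuronal markers was 2163 to 2183 CPM in anterior and 1741 to 1888 CPM in posterior brain, with elavl3 and syn1 higher in the anterior part and elavl4 lower (-0.43 ± 0.10, edgeR FDR = 0.00425). Their part in the result was not tested.

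**Figure D2:**
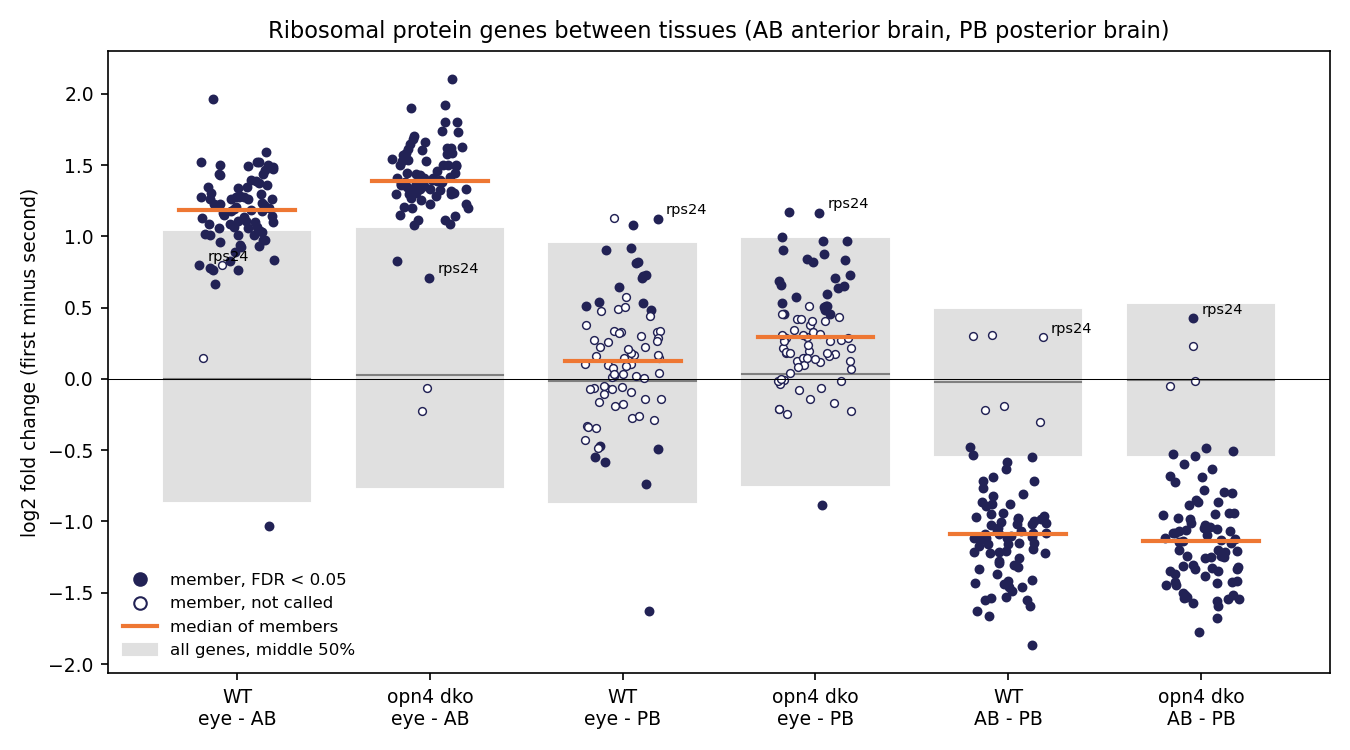
Log2 fold change of each of the 80 members in the tissue comparisons of wild-type and opn4 dko fish; 1 point is 1 gene, filled where FDR is below 0.05, orange bars are medians of members, and grey boxes hold the middle 50% of all genes with their median. Members lie near -1.09 for anterior against posterior brain and near 1.18 for eye against anterior brain in wild-type fish, but on both sides of 0 for eye against posterior brain.

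Between wild-type eye and anterior brain, 77 of 80 members were higher in the eye and 1 was lower, where 19.4% of 15843 genes were called higher and 16.2% lower. The median log2 fold change was 1.18, or 2.27-fold, against 0.00 over all genes. In opn4 dko fish 78 members were higher and 0 lower, with 26.2% and 23.1% of 16665 genes called, and the median was 1.39 against 0.03. Under actb1 scaling the same comparisons called 5 members higher and 1 lower in wild-type fish and 1 higher and 2 lower in opn4 dko fish. The medians of members were 0.36 and 0.28, against -0.84 and -1.08 over all genes, and 25.5% and 19.8% of the calls over all genes were higher. The size of this difference thus depends on the reference. Relative to all genes the members stood 1.20 and 1.36 higher under actb1, against 1.18 and 1.36 under TMM. Rpl7l1 was called in neither genotype, and rpl22l1 was not called in wild-type fish (edgeR FDR = 0.176).

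Rps20 and rpl22 were among the members with the largest rises. Rps20, a protein of the small-subunit head, read 305, 311 and 263 CPM in the eye and 99.8, 104 and 99.2 in the anterior brain (1.59 ± 0.16, edgeR FDR = 4.68e-05). The large-subunit gene rpl22 read 193, 194 and 214 CPM in the eye and 83.6, 67.8 and 66.0 in the anterior brain (1.52 ± 0.18, edgeR FDR = 0.000169). Neither gene overlapped between these tissues, and in opn4 dko fish the values were 1.92 ± 0.15 and 1.54 ± 0.18. Rplp0, the backbone of the stalk that recruits translation factors, rose by 1.28, and rpsa2, the row for the small-subunit protein also known as the laminin receptor, by 1.36. Rpl11, which in mammals binds Mdm2 when ribosome assembly is disturbed, rose by 0.78 in wild-type and 1.30 in opn4 dko fish, the wild-type value turning to -0.045 under actb1 scaling.

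The eye differed from the brain in its cells. Epithelial markers (5 genes) summed to 5949 to 10316 CPM in wild-type eyes and to 22.1 or less in all brain libraries, microglia markers to 2027 to 3152 CPM in the eye and 669 or less in wild-type anterior brain, erythrocyte markers to 361 to 727 CPM in the eye and 131 or less in anterior brain. Of the 4 microglia markers, 2 were called higher in wild-type eye than in anterior brain and 0 lower. Neuronal markers summed to 286 to 298 CPM in the eye. Their part in the eye and brain differences was not tested.

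Between eye and posterior brain the members lay on both sides of 0, with more positive than negative values in both genotypes. In wild-type fish 14 members were higher in the eye, 6 were lower and 60 were not called, with 17.9% and 15.4% of 15662 genes called higher and lower, so that the members were called no more often than other genes. The median was 0.13 against -0.01 over all genes, and the middle 50% of members lay between -0.10 and 0.40. In opn4 dko fish 25 were higher and 1 was lower, with 24.5% and 21.9% of 16871 genes called, and the median was 0.29 against 0.03. There 66 of 80 members were positive, where 51.1% of all genes were. In wild-type fish 53 of 80 were positive, where 49.6% of all genes were. The 14 members higher in wild-type fish were higher in opn4 dko fish as well, but of the 6 lower ones only 1 was lower in both. The wild-type count of 20 calls fell to 10 without posterior brain replicate 2 or without posterior brain replicate 3, and to 13 without eye replicate 2. Under actb1 scaling the higher calls were lost and 58 members were lower in the eye in wild-type and 38 in opn4 dko fish. On that scale only 19.6% and 20.2% of the calls over all genes were higher. The medians of members were -0.85 and -0.72, against -1.02 and -0.97 over all genes.

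Among the genes higher in the eye were rps24 and rpl38, which were not called between the wild-type brain parts. Rps24, a small-subunit protein, read 175, 204 and 206 CPM in wild-type eye, 118, 122 and 109 in anterior brain and 115, 92.9 and 73.0 in posterior brain. It thus kept its anterior level where the family as a whole was low, and its eye libraries lay above both brain parts (1.12 ± 0.21 against posterior brain, edgeR FDR = 0.00236). The difference between the brain parts was 0.29 ± 0.17 in wild-type (edgeR FDR = 0.224) and 0.43 ± 0.15 in opn4 dko fish (edgeR FDR = 0.0344). The opn4 dko call was not stable. Over the main fit and its alternatives, with DESeq2 and the edgeR exact test among them, its FDR ranged from 0.0223 to 0.83. Leaving out 1 library at a time gave 0 to 1 members called higher there. Rpl38, which in mice is needed for the translation of Hox mRNAs, read 98.6, 126 and 112 CPM in the eye, 39.2, 46.1 and 52.2 in anterior and 61.7, 57.8 and 47.2 in posterior brain. Its brain parts overlapped (-0.30, edgeR FDR = 0.31), and the eye was higher than the posterior brain by 1.08 ± 0.22 (edgeR FDR = 0.00341). Under actb1 scaling the value of rpl38 turned to -0.18 in opn4 dko fish, that of rps24 was 0.16 for wild-type eye against posterior brain (edgeR FDR = 0.666), and rps24 turned to -0.019 in wild-type and -0.45 in opn4 dko fish for eye against anterior brain.

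The stalk proteins rplp1 and rplp2, which bring elongation factors to the ribosome, were among the members higher in the eye than in posterior brain. The other stalk genes, rplp0 and rplp2l, were not called there in wild-type fish. In opn4 dko fish rplp0 was called higher and rplp2l was not called. Rplp1 read 1002, 673 and 689 CPM in wild-type eye and 540.3, 399.6 and 371 in posterior brain (0.92 ± 0.21, edgeR FDR = 0.00725), and rplp2 gained 0.49. Under actb1 scaling rplp1 turned to -0.092 and rplp2 to -0.51. Rpl12, at the base of the stalk, gained 0.82 and rpl4 0.72, both without overlap of the libraries. On the other side rpl17, rpl37, rps15, rps26_37071 and rps27.2 were lower in the wild-type eye, with log2 fold changes of -0.74 to -0.47. They were not called in opn4 dko fish, and the test of the difference between genotypes, given with the interactions below, called none of them.

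**Figure D3:**
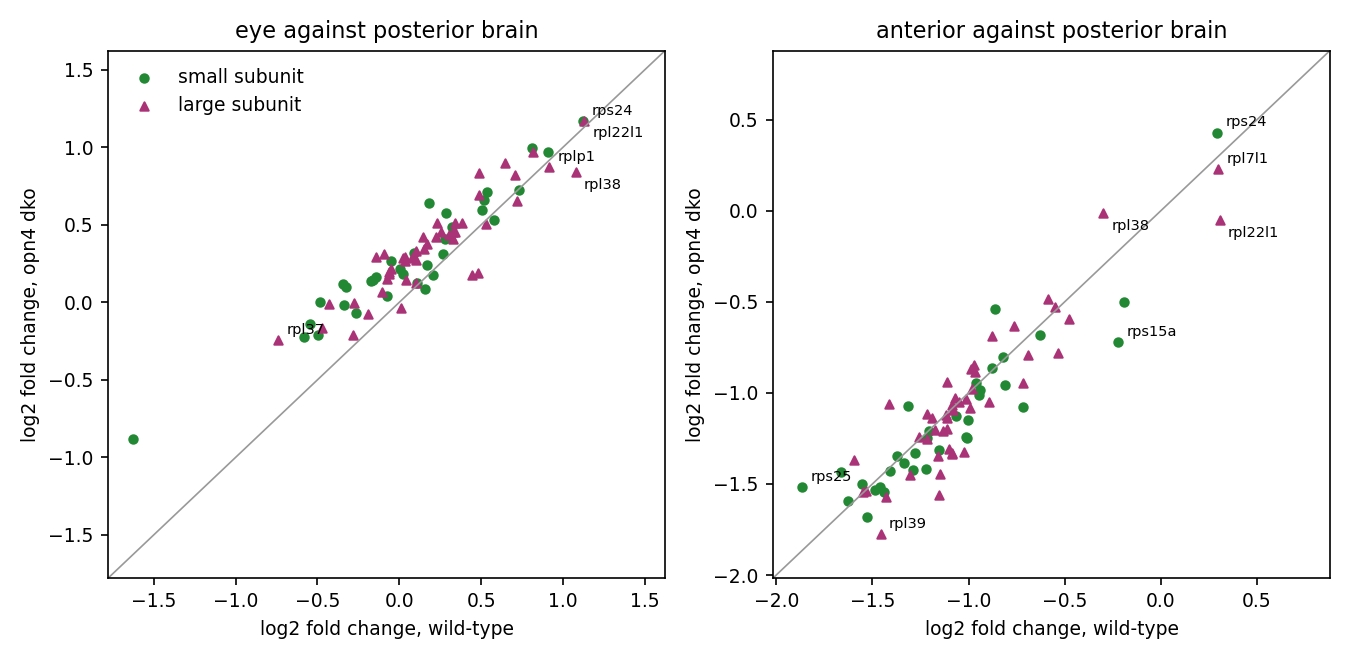
Log2 fold changes of the 80 members between tissues in wild-type fish (horizontal) and in opn4 dko fish (vertical), for eye against posterior brain and for anterior against posterior brain. Members keep their order in the independent libraries, with Pearson's r across genes of 0.94 for eye against posterior brain.

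The order of the members recurred between the genotypes, whose tissue comparisons have no library in common. Across the 80 genes, which are not independent replicates, the log2 fold changes of wild-type and opn4 dko fish had Pearson's r of 0.94 for eye against posterior brain, 0.91 for anterior against posterior brain and 0.81 for eye against anterior brain (Spearman's rho 0.91, 0.90 and 0.64). Their signs matched for 65, 79 and 79 genes.

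Some members exist as copies, and a few of these divided their reads differently by tissue. The log2 ratio of 2 copies within a library was compared by an exact two-sided permutation of tissue labels within genotypes, which has 400 arrangements and a smallest p of 0.005, with Benjamini-Hochberg adjustment over 21 tests. The tested differences in log2 ratio are means over both genotypes, here and for the related genes below. Such ratios do not depend on library scaling, but reads that fit near-identical copies equally well were not counted, so the split between copies is uncertain. Rps27.2 held 51.4% ± 1.49 of the reads of rps27.1 and rps27.2 in wild-type eye, 61.1% ± 0.754 in anterior brain and 56.9% ± 1.12 in posterior brain. Over both genotypes the log2 ratio differed by -0.53, -0.23 and 0.30 for eye against anterior, eye against posterior and anterior against posterior brain (exact permutation, adjusted p = 0.0131, 0.021 and 0.0131). In wild-type fish alone the differences were -0.57, -0.32 and 0.25. Rps26_37071 had 35.3% ± 0.869 of its pair's reads in wild-type eye and 41.3% ± 1.90 in posterior brain. The log2 difference was -0.32 over both genotypes (exact permutation, adjusted p = 0.0131) and -0.37 in wild-type fish. Between anterior and posterior brain it was -0.21 (exact permutation, adjusted p = 0.026), with -0.32 in wild-type and -0.09 in opn4 dko fish. Eye against anterior brain did not pass (-0.12, exact permutation, adjusted p = 0.119). For the 2 rpl5 copies, which encode a large-subunit partner of rpl11, and for rplp2 and rplp2l no difference passed, the changes being 0.14 to 0.32 and -0.20 to -0.09 (exact permutation, adjusted p from 0.119 to 0.415).

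**Figure D4:**
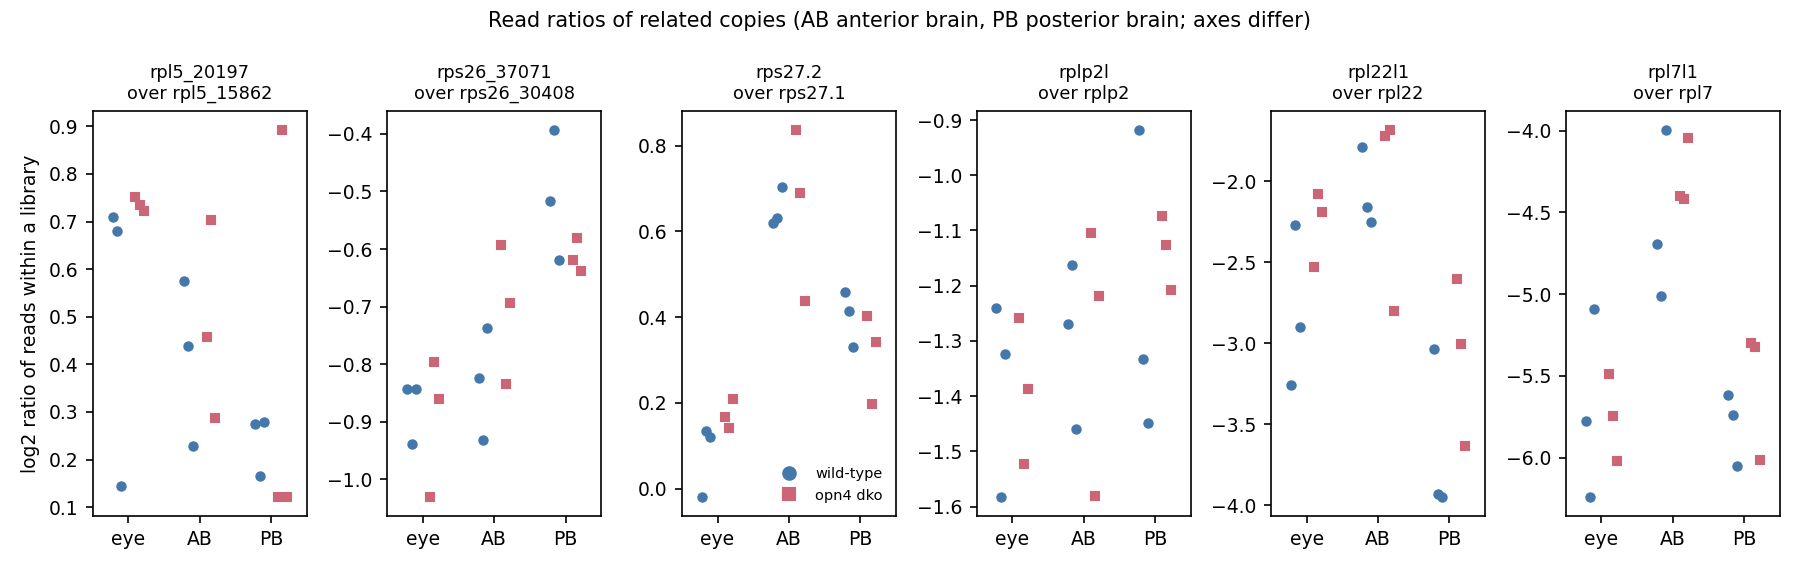
Within-library log2 ratios of 2 copies or related genes (6 pairs) by tissue and genotype, 1 point per library, with a scale of its own in each panel. The rps27.2 and rps27.1 ratio is highest in the anterior brain, where 61.1% of the pair's reads fell on rps27.2 in wild-type fish, against 51.4% in the eye.

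The related genes rpl22l1 and rpl7l1 differed from their partners between the brain parts. Rpl22l1, whose level in mice rises when Rpl22 is lost, read 24.1, 15.1 and 13.8 CPM in wild-type anterior brain, 21.8, 9.0 and 11.5 in posterior brain and 20.1, 40.0 and 28.4 in the eye. Its wild-type libraries overlapped between all tissues, while in opn4 dko fish the eye, at 50.3, 60.7 and 45.2 CPM, lay above both brain parts. Rpl22 was lower in the anterior brain, and rpl22l1 made up 19.3% ± 2.72 of the pair in wild-type anterior and 7.65% ± 2.74 in posterior brain. The log2 ratio difference was 1.29 over both genotypes (exact permutation, adjusted p = 0.021), with 1.57 in wild-type and 1.01 in opn4 dko fish. Rpl7l1, a relative of rpl7, lay between 7.58 and 19.6 CPM in all 18 libraries and was called in none of the tissue comparisons. Its ratio to rpl7 was higher in the anterior brain than in the eye by 1.30 and than in the posterior brain by 1.25 on the log2 scale (exact permutation, adjusted p = 0.0131 for each), with no difference shown between eye and posterior brain (-0.05, exact permutation, adjusted p = 0.83).

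Loss of the melanopsins was compared with wild-type in each tissue. In the eye the members leaned upwards as a family without a single call. Their median log2 fold change was 0.40, or 1.32-fold, against 0.03 over all genes, 78 of 80 were positive, and all 3 opn4 dko libraries lay above all 3 wild-type libraries for 52 members, where 7.69% of all 15773 genes did. The edgeR quasi-likelihood test called 0 members, where 0.0254% of genes were called. Of the members 38 had an unadjusted p below 0.05, where 4.28% of genes did, and DESeq2 and the edgeR exact test also called 0. Under actb1 scaling the median of members was 0.021 and that of all genes -0.31, so that the members stood 0.33 above all genes, against 0.36 under TMM. There were 23316 to 32395 member reads per 1000 actb1 reads in opn4 dko eyes against 22255 to 30889 in wild-type eyes. Actb1 itself read 1152 to 1992 CPM in opn4 dko and 1078 to 1421 CPM in wild-type eyes. Opn4 dko eye replicate 3 was the lowest of its group for 72 of 80 members and replicate 2 the highest for 52. Members thus shifted together between pools, and counts of members are not counts of independent results. Depth was split by genotype, with 2186877 to 3286423 counts in wild-type and 3958571 to 5717878 in opn4 dko eyes. The part of depth was not tested. The largest unadjusted changes included rpl37, at 146, 182 and 181 CPM in wild-type and 283, 353 and 253 CPM in opn4 dko eyes (0.78 ± 0.20, edgeR FDR = 0.993), and rpl27 (0.70 ± 0.20, edgeR FDR = 0.993). Both were free of overlap.

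Marker levels in the eye groups overlapped in part. Photoreceptor markers summed to 46198 to 49187 CPM in wild-type and 32592 to 49749 CPM in opn4 dko eyes, microglia markers to 2027 to 3152 and 2573 to 3563, and epithelial markers to 5949 to 10316 and 8621 to 11681. Their part in the lean of the family was not tested.

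In the anterior brain the edgeR quasi-likelihood test called 1 member, rpl27, higher in opn4 dko fish and 0 lower, where 1.05% of 15341 genes were called. DESeq2 also called 1 member, and the edgeR exact test called 2, rpl27 and rpl32. The median over members was 0.11 against 0.00 over all genes, 66 of 80 were positive and 7 had an unadjusted p below 0.05, where 9.03% of genes did. The opn4 dko libraries lay wholly above the wild-type libraries for 5 members, rpl27, rpl32, rps24 and rps9 among them, where 7.7% of genes did, and wholly below for rplp1. This small lean rested on replicate 1, the highest opn4 dko anterior library for 72 of 80 members: within lane 6, its lane, the median genotype difference was 0.35, and within lane 5, which held the other libraries, -0.03. Without 1 library at a time the median ranged from -0.01 to 0.19. Photoreceptor markers summed to 1.53 to 6.99 CPM in wild-type and 107 to 194 CPM in opn4 dko anterior brain, pineal markers to 3.82 to 5.63 and 41.9 to 98.4, and their part in the values of the members was not tested.

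Rpl27 (ENSDARG00000015128), a large-subunit protein, was the only member that the edgeR quasi-likelihood test called in a genotype comparison. It read 128, 126 and 109.9 CPM in wild-type and 217, 195 and 159.8 CPM in opn4 dko anterior brain. The libraries did not overlap, and the log2 fold change was 0.65 ± 0.14 (edgeR FDR = 0.0221). The call was lost without anterior wild-type replicate 2 (FDR 0.0829) or replicate 3 (0.143) and without opn4 dko replicate 1 (0.165) or replicate 2 (0.114), when all 18 libraries were fitted together (0.127), under actb1 scaling (1.00) and at an FDR threshold of 0.01. In the posterior brain the values were 302, 252 and 219.5 CPM in wild-type and 383, 319 and 386 CPM in opn4 dko fish (0.49 ± 0.14, edgeR FDR = 0.164), and in the eye 249, 339.9 and 231 against 472, 508 and 378 CPM. All opn4 dko libraries thus lay above all wild-type libraries in each of the 3 tissues, although only the anterior brain passed the test. Rpl32, another large-subunit gene, came next in the anterior brain with 68.7, 53.0 and 63.6 against 98.7, 94.6 and 83.4 CPM (0.58 ± 0.16, edgeR FDR = 0.121).

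In the posterior brain the edgeR quasi-likelihood test called 0 members, the smallest FDR being 0.164, where 0.357% of 15417 genes were called. DESeq2 and the edgeR exact test also called 0. The median over members was 0.17 against 0.01 over all genes, 74 of 80 were positive, and 21 had an unadjusted p below 0.05, where 9.74% of genes did. The opn4 dko libraries lay above the wild-type libraries for 9 members, rpl27, rpl32, rpl35, rpl36, rpl39, rpl4, rps15a, rps3 and rps7, where 7.57% of genes did. The within-lane medians were 0.23 in lane 6 and 0.14 in lane 4. Relative to actb1, which read 555 to 750 CPM in wild-type and 689 to 912 in opn4 dko fish, the median of members was -0.18 and that of all genes -0.34, so that the members stood 0.16 above all genes under both scalings. Member reads per 1000 actb1 reads were 46334 to 51007 in wild-type and 41652 to 45604 in opn4 dko fish. The 4 microglia markers summed to 1149 to 1578 and 1401 to 1861 CPM, with ptprc, a pan-leukocyte marker, called higher in opn4 dko fish (1.68 ± 0.25, edgeR FDR = 0.00215). Photoreceptor markers summed to 0.842 to 3.34 CPM in wild-type and 6.47 to 65.3 CPM in opn4 dko posterior brain. Their part was not tested.

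The stalk gene rplp1 had a negative value in all 3 tissues, where most members were positive. It read 294, 326 and 289 CPM in wild-type and 237, 279.7 and 253 CPM in opn4 dko anterior brain, without overlap. The log2 fold changes were -0.25 ± 0.12 for anterior brain, -0.25 ± 0.14 for posterior brain and -0.28 ± 0.19 for eye, none past the threshold (edgeR FDR = 0.544, 0.6 and 0.993). Rps6, the substrate of the S6 kinases, and rps3, a protein at the mRNA entry, were called in no genotype comparison. Rps3 in the posterior brain read 474, 435 and 421 CPM in wild-type and 559.6, 496 and 538 CPM in opn4 dko fish, without overlap.

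**Figure D5:**
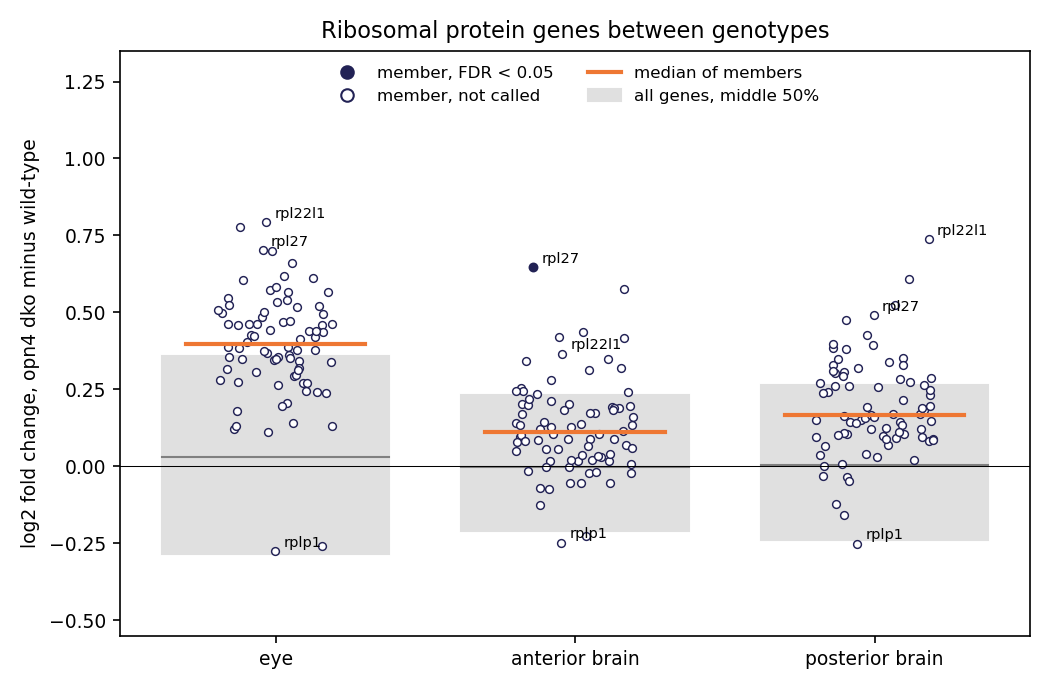
Log2 fold change of each of the 80 members between opn4 dko and wild-type fish in eye, anterior brain and posterior brain; 1 point is 1 gene, orange bars are medians of members, and grey boxes hold the middle 50% of all genes with their median. The members centre on 0.40, 0.11 and 0.17, and rpl27 in the anterior brain is the single call (0.65 ± 0.14).

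Whether the genotype effect differed between tissues was tested as an interaction over all 18 libraries and 18630 genes. No member was called. The median difference of effects was -0.05 between anterior and posterior brain. There 0 members had an unadjusted p below 0.05, where 3.00% of genes did, and 0.00537% of genes were called. The median difference was -0.31 between anterior brain and eye, against -0.04 over all genes. Of the members 6 had an unadjusted p below 0.05, where 5.91% of genes did. The smallest edgeR FDR was 0.698, and 0.344% of genes were called. Between posterior brain and eye the median difference was -0.24, against -0.05 over all genes. Here 2 members had an unadjusted p below 0.05, where 5.86% of genes did. The smallest edgeR FDR was 0.842, and 0% of genes were called. DESeq2 called 0 members in each of the 3. Of the 80 members 7 were positive between anterior brain and eye and 8 between posterior brain and eye, where 46.8% and 46.2% of all genes were. Under actb1 scaling 44 and 15 members were positive. Each test was of a single gene, so whether the family leaned more in the eye than in the brain parts was not tested.

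Part of the difference between the pools of a group was a shift common to the whole family. The median SD of a member's log2 level among the 3 libraries of a group was 0.16 to 0.25, and after removal of each library's median shift it was 0.11 to 0.15. The step was largest in the opn4 dko anterior brain, from 0.24 to 0.11, and in opn4 dko posterior brain, from 0.25 to 0.11, and smaller in wild-type eye, from 0.18 to 0.15, and in wild-type anterior brain, from 0.16 to 0.13. Replicate 1 of the posterior brain was the highest of its group for 65 members in wild-type and 61 in opn4 dko fish, both from lane 6. Opn4 dko posterior replicate 2 was the lowest for 72. Lane 6 did not always go with the highest level. Wild-type anterior replicate 1, from the same lane, was the highest of its group for 23 members, and replicate 2, from lane 5, for 46.

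Other parts of the translation machinery were followed in the same comparisons. Of all genes in wild-type fish, 19.4% were called higher and 16.2% lower in eye than in anterior brain. The shares were 17.9% and 15.4% for eye against posterior brain, and 13.7% and 13.6% for anterior against posterior brain. They are the background for each list below. The 4 further ribosome components outside the naming rule (such as fau, whose product joins a ubiquitin-like protein to a ribosomal protein, and rack1, a scaffold on the small subunit) behaved as the members did. In wild-type fish 3 of them were higher in eye than in anterior brain, 0 were called between eye and posterior brain, and 3 were lower in anterior than in posterior brain. For rack1 the values were 1.36 and, between the brain parts, -1.01. Of 20 translation factors and other genes with TOP mRNAs, 12 were higher and 1 lower in wild-type eye than in anterior brain. Against posterior brain 10 were higher and 3 lower in wild-type eye, with a median of 0.51, unlike the members with their median of 0.13. Between the wild-type brain parts 1 was higher and 9 lower in the anterior part, with a median of -0.34. Eef1da, a subunit of the exchange factor of elongation factor 1, was higher in the eye by 3.48 and 2.43 than in anterior and posterior brain, while eef1a2, in mammals the elongation factor of neurons and muscle, was lower in anterior than in posterior brain by a log2 fold change of -3.71.

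Ribosome biogenesis factors did not share the pattern. Of 23, 3 were higher and 0 lower in wild-type eye than in anterior brain, among them fbl (fibrillarin, the nucleolar methyltransferase, 0.99) and nop58 (0.97), and 1 was higher and 1 lower in anterior than in posterior brain, with ncl (nucleolin) at -0.47. Of 69 mitochondrial ribosomal protein genes tested, 1 was higher and 1 lower in eye than in anterior brain, 0 were higher and 8 lower in eye than in posterior brain, and 0 were higher and 16 lower in anterior than in posterior brain, with a median of -0.41 there. The mitochondrial set was thus also lower in the anterior part, but by a smaller median than the cytosolic -1.09. The list of mTOR and S6 kinase genes, 14 of them tested, also held the rps6ka kinases and is not a single pathway. Of these genes, 3 were higher and 5 lower in wild-type eye than in anterior brain, mtor itself by -1.34. Between anterior and posterior brain 4 were higher and 0 lower in the anterior part. They were rheb, the activator of mTOR (0.64), eif4ebp2, a repressor of translation under its control (0.64), rps6ka1 (0.76) and rps6ka4 (1.31). The shares over all genes were 19.4% and 16.2% in the first comparison and 13.7% and 13.6% in the second. In the 3 genotype comparisons the edgeR quasi-likelihood test called 0 of the 130 genes of these 5 lists, as did DESeq2 and the edgeR exact test. In anterior brain, posterior brain and eye 13, 11 and 7 of the 130 genes had an unadjusted p below 0.05, where 9.03, 9.74 and 4.28% of all genes did.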

How the data were processed

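The authors sequenced polyadenylated RNA as 100 bp single reads, mapped it to GRCz10 and counted reads per gene with featureCounts over whole gene bodies at a mapping quality of at least 20, and the deposited values are raw counts. The mapper is given differently in the sources (HISAT or NextGenMap), and whether the kit marks strand is not stated. Symbols were matched for 26154 of 31624 identifiers. Members and lists were chosen with earlier results of these data known.

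Each comparison of 6 libraries was fitted with edgeR 4.0.16 in R 4.3.3 (TMM, filterByExpr with a minimum count of 10, quasi-likelihood F-test, Benjamini-Hochberg adjustment over all genes tested, FDR below 0.05), and interactions over all 18 libraries. Positive tissue values mean higher in the tissue named first, positive genotype values higher in opn4 dko fish. CPM values are TMM-scaled over the 18 libraries. Wilson intervals are at 95%. The ratios of copies (with 0.5 added to each count) were tested by an exact permutation chosen after the data were seen. The fits were tested on simulated data. Alternatives were other scalings, filters and tools (DESeq2 1.42.0, the edgeR exact test), a replicate block, a lane term added later, and leaving out each library. The edgeR p-values set a group difference against the spread between pools, estimated with information from all genes. The permutation p-values place it among rearranged tissue labels. Neither covers the lane, which cannot be told apart from tissue where the eye is compared.

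Named genes were those called between genotypes, the 4 largest rises and 4 largest falls per tissue comparison called alike in both genotypes, copies of one gene, and rpsa, rplp0, rplp1, rps6, rpl11, rps3 and rpl27. Results for some of these genes, and for 1 pair of copies, are not reported here. Others were named after their values were seen. Levels per length and sequences of start sites were not analysed here, since no lengths or sequences were used.

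Same-numbered wild-type anterior and posterior libraries deviated together across 7576 genes (correlations 0.24, 0.10 and 0.15), a possible pairing that comes from the data and not from the labels. The main fits and the permutation of copy ratios did not use this pairing and treated the libraries as unpaired. Replicate numbers entered only the replicate block, which is an alternative. In the other comparisons at least 1 correlation was below 0.1, narrowly so between the opn4 dko brain parts (0.15, 0.20 and 0.094). Same-numbered posterior brain libraries of the 2 genotypes, which are different fish, had correlations of 0.12, 0.05 and 0.06. Such values therefore do not establish that libraries share fish.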

Additional observations from a re-analysis of the deposited data

How the results depend on the processing

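Depth limits rpl7l1 and rpl22l1, and 3 pools a group limit the genotype comparisons. Of 119 results for named genes, 1953 values under alternatives were computed: 1816 kept their direction and side of the threshold, 118 lost the call, 1 gained it and 18 reversed, all 18 under actb1 scaling; the cause was not tested.

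With actb1 scaling the called members were 6 in wild-type eye against anterior brain (median 0.36; rps24 -0.019, rps27.2 -0.16, rpl11 -0.045), 58 in wild-type eye against posterior brain (median -0.85; rps20 -0.19, rplp1 -0.092, rpl5_20197 -0.35, rplp2 -0.51, rpsa2 -0.48), 3 in opn4 dko eye against anterior brain (median 0.28; rps24 -0.45, rpl38 -0.29, rps27.2 -0.023) and 0 in the anterior brain genotype comparison. In opn4 dko eye against posterior brain the median was -0.72 (rpl22 -0.57, rpl38 -0.18, rplp1 -0.14, rpl5_20197 -0.13, rplp2 -0.30, rpsa2 -0.35, rplp0 -0.49). The genotype medians became -0.18 in posterior brain and 0.021 in eye, and the interaction medians 0.23 (anterior against posterior brain) and 0.040 (anterior brain against eye). The ratios of summed levels became 1.29 and 0.557 for wild-type eye over anterior and posterior brain, 1.25 and 0.627 in opn4 dko fish, and 0.999 and 0.887 for opn4 dko over wild-type in eye and posterior brain. The share of all calls that were higher went from 54.4 to 25.5% and 53.8 to 19.6% in wild-type eye against anterior and posterior brain, from 50.1 to 36.7% between the wild-type brain parts, from 53.1 to 19.8% and 52.8 to 20.2% in opn4 dko eye against anterior and posterior brain, from 51.7 to 63.3% between the opn4 dko brain parts, and for genotype from 58.4 to 72.0% in anterior and 49.1 to 10.6% in posterior brain.

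For the anterior brain genotype comparison the members called were 0 at an FDR of 0.01, 0 with all 18 libraries in 1 fit, 2 with the exact test and 2 with every gene counted at least once, where the posterior brain had 3. At an FDR of 0.01, 10 members were called in wild-type and 16 in opn4 dko eye against posterior brain. The calls over all genes went from 161 to 262 with DESeq2, 272 with the exact test and 355 without the filter in anterior brain, from 55 to 144, 159 and 226 in posterior brain, and from 4 to 27, 17 and 16 in eye. With all 18 libraries in 1 fit they were 18 in posterior brain and 34 in eye. With a lane term they went from 4202 to 1715 and from 4795 to 1670 between the wild-type and opn4 dko brain parts. Without the 100 most counted genes in the total, the shares were 3.72 and 4.81% in wild-type and opn4 dko eye, 1.77 and 1.94% in anterior and 3.84 and 4.32% in posterior brain, and without second copies 2.88% in wild-type eye.

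Leaving out 1 library at a time gave 0 to 1 called members for genotype in anterior and in posterior brain, 10 to 20 in wild-type eye against posterior brain, 73 to 78 in wild-type eye against anterior brain, 72 to 74 between the wild-type brain parts, and 18 to 31 in opn4 dko eye against posterior brain. With the replicate block, wild-type anterior against posterior brain kept 74 calls. In wild-type eye against posterior brain the block left 13 members higher and 2 lower, and the genotype comparisons had 1 call in anterior brain and 0 in posterior brain and eye.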
